A study of Arabis alpina with 9 samples.

Results

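Shoot apices of *pep2-1* and *pep1-1*, a pair of early-flowering mutants of the perennial *Arabis alpina*, were compared gene by gene. The members are the 3 *pep2-1* and the 3 *pep1-1* libraries, 6 of the 9 RNA libraries of the series, and the 21713 genes with enough reads to test among the 30690 genes of the table. Plants of all groups were 3 weeks old and grown under 16 h of light and 8 h of dark, and RNA came from dissected apices. *pep2-1* and *pep1-1* were both obtained by EMS mutagenesis of the accession Pajares, which is also the wild type of the remaining 3 libraries. The *pep2-1* plants were homozygotes picked from a segregating family with a marker at the locus. Each mutant is 1 allele, so other lesions that a line carries cannot be told apart from its named mutation. The study treats the 3 libraries of a genotype as biological replicates, and how many plants entered each is not known here. The comparison asks which genes *PEP2* affects by a route other than *PEP1*. It cannot settle this alone, since a gene changed only in *pep1-1* also differs between the mutants. The study mentions residual *PEP1* expression in *pep2-1*, so such a difference need not be an effect of *PEP2* apart from *PEP1*.

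*PEP2* is the *A. alpina* ortholog of the Arabidopsis gene *APETALA2* (*AP2*), which encodes a transcription factor known as a floral repressor and as a floral organ identity factor. *PEP1* is the ortholog of *FLOWERING LOCUS C* (*FLC*), a MADS-box repressor that keeps plants vegetative until a long cold season has passed. *PEP2* acts in part by maintaining *PEP1* expression, and *PEP1* in turn represses flowering genes in the apex. Gene roles given below are those known from Arabidopsis, and genes are named by the ortholog listed for them.

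*PEP2* (AALP_AA7G245300, chromosome 7, 26841956 to 26844520 in the coordinates of the deposited table) was transcribed in every library. It stood at 72.2, 80.7 and 84.8 CPM (reads of a gene relative to all reads in genes of its library, after TMM scaling) in *pep2-1* replicates A, B and C, and at 61.5, 54.2 and 49.7 CPM in *pep1-1* replicates A, B and C. The *pep2-1* libraries were all above those of *pep1-1*, with a log2 fold change of 0.52 (standard error, SE, 0.11, edgeR adjusted p = 0.0399) that is under the threshold of 1 used for calls. Because its transcript persists in *pep2-1*, its level does not check the labels. *PEP1* was not analysed here.

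The 6 libraries held 12871904 to 16122625 reads in genes. Replicates of a genotype were not alike. On the first principal component of the 6 libraries, which held 58.0% of the variance, *pep2-1* replicates A, B and C lay at -33.6, -11.1 and -19.6, and *pep1-1* replicates A, B and C at 1.57, 29.9 and 32.8. Replicate A of *pep1-1* was thus the nearest of its genotype to *pep2-1*. Meristem genes marked the tissue in all 9 libraries, with *STM* (AALP_AA2G018400) at 39.5 to 44.3 CPM in *pep2-1*, 28 to 41.8 CPM in *pep1-1* and 27.3 to 38.1 CPM in the wild type, and the *AP1* ortholog (AALP_AA2G117200) had 0 reads in each.

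Between *pep2-1* and *pep1-1*, edgeR called 149 genes higher and 141 lower in *pep2-1*, where a call needs an adjusted p of 0.05 or less and at least 1 on the log2 scale in either direction. These are 0.686% and 0.649% of the genes tested, the background against which the counts of gene groups below are to be read. All 290 have 3 *pep2-1* libraries on 1 side of the 3 *pep1-1* libraries, as do 24.1% of all tested genes (12.6% on the higher and 11.5% on the lower side). An unadjusted p under 0.05 was reached by 19.1% of all tested genes, 10.1% on the higher and 8.96% on the lower side, and the counts at that p given for gene lists are to be read against these shares. DESeq2 called 1.4% higher and 0.82% lower, and limma-voom 1.69% and 0.926%. The 149 became 39, 42 and 36 when *pep2-1* replicates A, B and C were left out in turn, and 379, 21 and 36 when the *pep1-1* ones were. It became 236 with wild-type replicate A dropped and 75 with replicate C dropped, since the wild type enters through the shared estimate of spread. Leaving out *pep2-1* replicate A, B or C turned the 141 into 78, 74 or 84, and leaving out *pep1-1* replicate B or C turned it into 70 or 79. With every single library left out in turn, 56 of the genes called lower and 17 of those called higher kept their calls.

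Most changes were of moderate size. The log2 fold change was under 2 in 100 of the 149 genes and in 107 of the 141, and it was 3 or more in 15 and 11. Genes called higher had a median level of 5.18 CPM over the 6 libraries and those called lower one of 3.66 CPM. An Arabidopsis ortholog is listed for 105 of the genes called higher but for only 60 of those called lower, so that 1.57% of the 5146 tested genes without an ortholog were called lower, and 0.362% of the 16567 with one. Set beside the wild type, the 149 genes had a median log2 fold change of 0.97 in *pep2-1* and of -0.62 in *pep1-1*, and the 141 genes had -1.44 in *pep2-1* and 0.04 in *pep1-1*. These medians share the wild-type libraries and are given as a description. On the log2 scale with a pseudocount of 2, the wild-type mean was nearer *pep2-1* than *pep1-1* in 39 of the 149 genes. The same held for 18 of the 141.

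**Figure D1:**
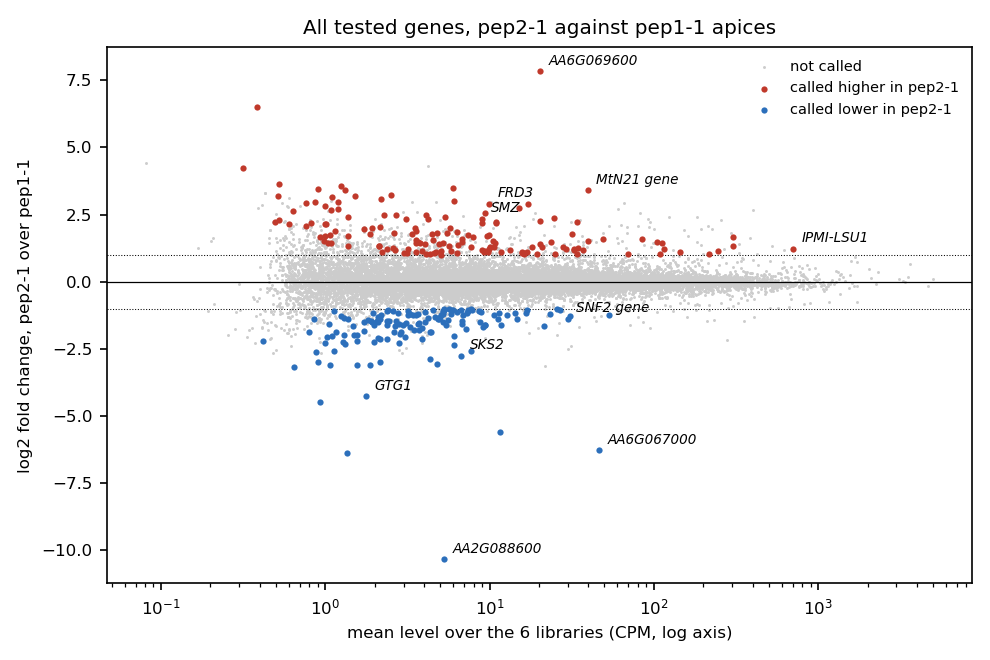
Log2 fold change of *pep2-1* over *pep1-1* (vertical axis) against the mean level in CPM over the 6 libraries (horizontal log axis) for the 21713 tested genes, with the 149 called higher in red, the 141 called lower in blue and dotted lines at a log2 fold change of 1 in either direction. The called genes spread over a wide range of levels, and the farthest points are AALP_AA6G069600 at 7.83 and AALP_AA2G088600 at -10.32, whose fitted value has no *pep2-1* read behind it.

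Among floral repressors the ortholog of *SCHLAFMÜTZE* (*SMZ*, AALP_AA5G187300, chromosome 5, 15903599 to 15906490), an AP2-like repressor, separated the mutants best. Its level was 14.3, 15.3 and 15.8 CPM in *pep2-1* replicates A, B and C and 3.59, 2.81 and 2.42 CPM in *pep1-1* replicates A, B and C. Every *pep2-1* library lay well above every *pep1-1* library, and the 9.48, 7.41 and 6.6 CPM of the wild type fell between them. The log2 fold change of *SMZ* was 2.35 (SE 0.18, edgeR adjusted p = 0.000252), and with single libraries left out it ran from 2.23 to 2.52. Over the wild type its log2 fold change was 0.95 in *pep2-1* (edgeR adjusted p = 0.0196) and -1.40 in *pep1-1* (adjusted p = 0.0155).

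*SMZ* was the only one of the 15 tested floral repressors that edgeR called with all 9 libraries, and the median of the 15 log2 fold changes was 0.09, against -0.01 for all genes. DESeq2 called 1 higher and 1 lower, limma-voom 2 higher and 1 lower, and edgeR 2 higher and 1 lower without *pep1-1* replicate A and 1 higher and 1 lower without wild-type replicate A. Of the AP2-like genes in this list, *TOE1* (AALP_AA6G223300) stood at 63.8, 43.6 and 53.0 CPM in *pep2-1* and at 35.7, 24.2 and 22.0 CPM in *pep1-1*. Its libraries did not overlap, and its log2 fold change of 0.97 (edgeR adjusted p = 0.0611) was not called. *TOE2* (AALP_AA8G398000) differed by 0.14 and *TOE3* (AALP_AA8G511400) by 0.56 on the log2 scale. The MADS-box repressor genes *SVP*, *FLM* and *MAF3* had log2 fold changes of 0.09, 0.07 and 0.00.

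*TFL1* (AALP_AA8G031100), which keeps shoot meristems indeterminate, had 6.44, 8.11 and 6.78 CPM in *pep2-1* and 10.2, 19.1 and 13.8 CPM in *pep1-1*. All *pep2-1* libraries were below those of *pep1-1*. Its log2 fold change of -1.01 did not pass in edgeR (SE 0.25, adjusted p = 0.0698), passed in DESeq2 (adjusted p = 0.00516) and limma-voom (adjusted p = 0.0269), and passed in edgeR without *pep1-1* replicate A (adjusted p = 0.0251) or wild-type replicate A (adjusted p = 0.0359).

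Among floral activators 2 of 9 tested genes were lower in *pep2-1*. *SPL15* (AALP_AA5G233200, chromosome 5, 19154646 to 19156210), a target of miR156 that promotes flowering at the shoot meristem, had 4.68, 2.86 and 2.52 CPM in *pep2-1* replicates A, B and C, against 11.3, 10.9 and 8.36 CPM in those of *pep1-1*. The wild-type libraries, at 2.04, 2.54 and 2.53 CPM, were near those of *pep2-1*. Its log2 fold change was -1.59 (SE 0.23, edgeR adjusted p = 0.0103), and the adjusted p stayed at or under 0.0496 with each library left out.

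The MADS-box gene *AGL19* (AALP_AA3G221600, chromosome 3, 13519970 to 13525139), an activator linked to cold in Arabidopsis, behaved differently with respect to the wild type. It had 4.23, 4.1 and 3.86 CPM in *pep2-1* and 10.1, 9.67 and 9.37 CPM in *pep1-1*, while the wild type had 6.85, 7.66 and 8.64 CPM. No 2 genotypes overlapped. The log2 fold change of *AGL19* between the mutants was -1.25 (SE 0.13, edgeR adjusted p = 0.00177), and over the wild type it was -0.92 in *pep2-1* (adjusted p = 0.00942) and 0.33 in *pep1-1* (adjusted p = 0.655).

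*SOC1* (AALP_AA4G246000), a floral integrator, had 6, 6.41 and 5.04 CPM in *pep2-1*, 8.94, 8.08 and 9.37 CPM in *pep1-1* and 1.51 to 1.60 CPM in the wild type. Both mutants were thus far above the wild type, with log2 fold changes of 1.90 and 2.5 (edgeR adjusted p = 0.000533 and 0.000111). Between the mutants the libraries did not overlap, and the log2 fold change of -0.59 (SE 0.14, edgeR adjusted p = 0.0556) was not called. *LFY* (AALP_AA8G450600), the meristem identity gene, overlapped between the mutants at 1.42 to 3.32 CPM in *pep2-1* and 1.95 to 3.25 CPM in *pep1-1*. *FUL* (AALP_AA8G438300) was under the filter, with 13, 8 and 8 reads in *pep2-1* and 3, 3 and 1 reads in *pep1-1*, and *FT* (AALP_AA2G124500) had at most 2 reads in any library. *ZCE1* (AALP_AA5G005500), which the study lists as differing in *pep2-1* specifically, had 50.9, 38.6 and 47.0 CPM in *pep2-1* and 31.0, 25.4 and 21.6 CPM in *pep1-1*. Its libraries did not overlap, and its log2 fold change of 0.81 (SE 0.20, edgeR adjusted p = 0.0646) was not called.

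Most genes of floral organs were under the filter on low reads. Of 16 organ and meristem identity genes that were matched, 6 had enough reads to test, and 1 of these was called. *CRABS CLAW* (*CRC*, AALP_AA2G117700), a YABBY gene of carpels and nectaries, had 7.46, 8.35 and 8.35 CPM in *pep2-1* and 4.81, 3.68 and 2.42 CPM in *pep1-1*. Its log2 fold change was 1.13 (SE 0.25, edgeR adjusted p = 0.0487), a call lost without any 1 library of either mutant except *pep1-1* replicate A, without wild-type replicate C and with only the 6 libraries fitted (adjusted p = 0.0586). In the opposite direction, the ortholog of *VERDANDI* (AALP_AA8G193800), a gene of ovule development, had 3.92, 4.71 and 5.44 CPM in *pep2-1* and 17.1, 11.7 and 13.4 CPM in *pep1-1*. The wild type lay between them, at 6.25 to 7.07 CPM. The log2 fold change of -1.59 between the mutants (SE 0.17, edgeR adjusted p = 0.00224) was called with each library left out. Over the wild type it was 1.05 in *pep1-1* (edgeR adjusted p = 0.0459) and -0.54 in *pep2-1* (adjusted p = 0.193).

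**Figure D2:**
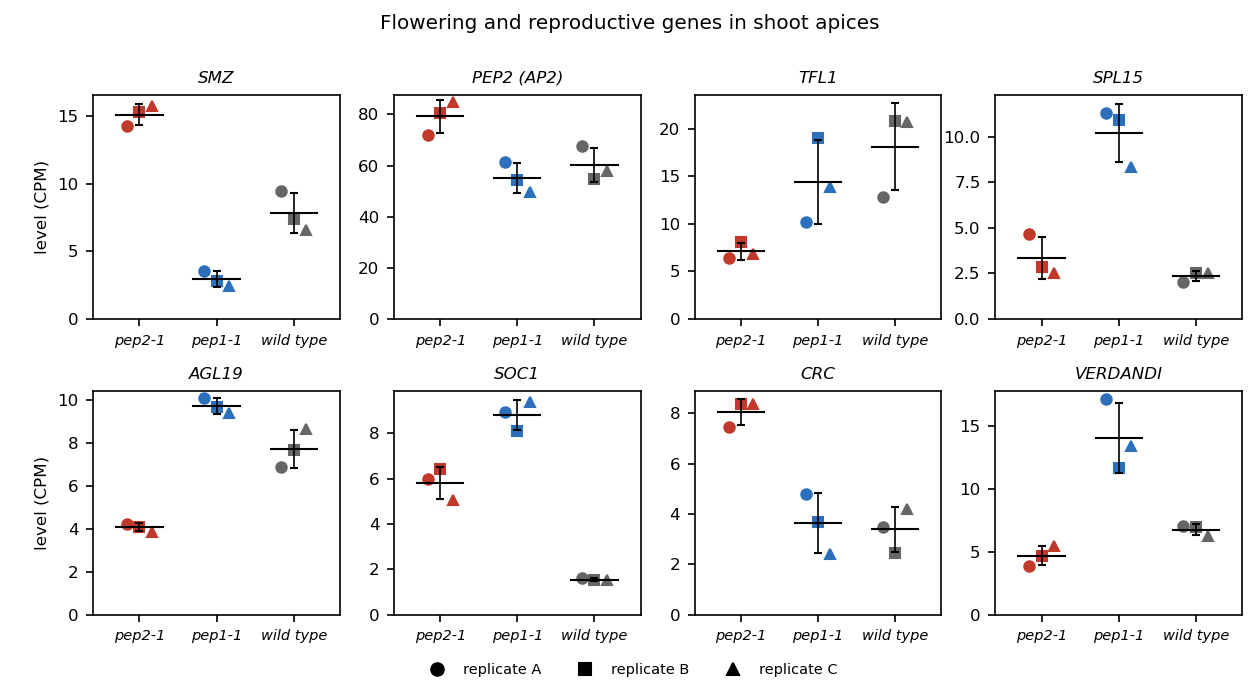
Levels in CPM (vertical axes, from 0) of 8 flowering and reproductive genes in *pep2-1*, *pep1-1* and wild-type apices, with 1 symbol per library, horizontal lines at the means and bars of 1 SD (n = 3). The *pep2-1* points of *SMZ* lie at 14.3 to 15.8 CPM, above all others, and those of *SPL15* lie at 2.52 to 4.68 CPM, near the wild type and under *pep1-1*.

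Glucosinolates are sulfur-rich defence compounds of the Brassicaceae, and those of the aliphatic kind are made from chain-elongated methionine. All 20 tested genes of aliphatic glucosinolate synthesis were on the higher side in *pep2-1*, with a median log2 fold change of 1.42 against -0.01 for all genes. In 15 of them the libraries of the mutants did not overlap, against 12.6% of all genes on that side. Only 1 of the 20 passed in edgeR, while 18 were higher at an unadjusted p under 0.05 (10.1% of all genes were). DESeq2 called 7 and limma-voom 17. Without *pep1-1* replicate A edgeR called 17, without wild-type replicate A it called 4, and without any 1 of the other libraries it called 0. This list, like all gene lists and families in this report, was drawn up with results of these libraries known. Glucosinolate synthesis is also a theme of the study's own lists from the same libraries.

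The called member was *IPMI-LSU1* (AALP_AA4G094900), the large subunit of the isopropylmalate isomerase of leucine synthesis and methionine chain elongation. It had 1151, 939 and 868 CPM in *pep2-1* replicates A, B and C and 589, 321 and 350.1 CPM in *pep1-1* replicates A, B and C. Its log2 fold change was 1.23 (SE 0.25, edgeR adjusted p = 0.0391). Replicate A was the highest of each mutant, and the lowest *pep2-1* library was above the highest of *pep1-1*.

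*CYP79F1* (AALP_AA1G181100), the cytochrome P450 that starts core structure formation, shows how *pep1-1* replicate A enters the other members. It had 135, 156 and 134 CPM in *pep2-1*, against 60.4, 3.61 and 7.34 CPM in *pep1-1* and 55.5, 19.2 and 20.4 CPM in the wild type. The *pep2-1* libraries were close together, and replicate A was several times above B and C in *pep1-1* and higher than both in the wild type. The log2 fold change was 2.56 (SE 0.82, edgeR adjusted p = 0.134), and with the libraries lettered A of all genotypes left out, which leaves 2 against 2, it was 4.74 (adjusted p = 3.1e-06). *BCAT4* (AALP_AA3G226500), the aminotransferase at the entry of chain elongation, followed with 112, 199 and 153 CPM in *pep2-1* and 77.6, 3.82 and 9.53 CPM in *pep1-1*. Without the libraries lettered A 17 of the 20 genes were called, and *GSTF11*, *GSTU20* and *GSL-OH* were not.

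Regulators of the pathway gave a similar order. *MYB29* (AALP_AA8G072600), a transcription factor that promotes aliphatic glucosinolate synthesis, had 44.7, 64.5 and 58.6 CPM in *pep2-1* and 24.2, 7 and 4.77 CPM in *pep1-1*. Its log2 fold change was 2.21 (SE 0.46, edgeR adjusted p = 0.0404), a call that was lost with only the 6 libraries fitted (adjusted p = 0.0764), without any 1 *pep2-1* library and without replicate B or C of *pep1-1* or of the wild type. *MYB28* (AALP_AA8G444600), with a related role, had 76.3, 94.9 and 97.0 CPM in *pep2-1* and 76.0, 41.4 and 34.7 CPM in *pep1-1*, and was not called at a log2 fold change of 0.82 (edgeR adjusted p = 0.164). *MYB34* (AALP_AA3G303000), a regulator of the indolic branch, differed by -0.30.

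The indolic branch, made from tryptophan, had no call in edgeR among its 9 tested genes. There 2 genes were higher at an unadjusted p under 0.05, 1 was called by DESeq2 and 2 by limma-voom, and edgeR called 2 without *pep1-1* replicate A. The median log2 fold change was 0.45. *CYP83B1* (AALP_AA7G096200) differed by -0.02 and *CYP79B3* (AALP_AA6G292300) by 1.55. None of the 9 tested genes of glucosinolate breakdown and transport was called by edgeR, DESeq2 or limma-voom. Of the 5 with an unadjusted p under 0.05, 3 were higher and 2 lower in *pep2-1*. In 3 of the 9 every *pep2-1* library was above every *pep1-1* library. The one member of this group with *pep2-1* below *pep1-1* in every library was the myrosinase-binding gene *MBP1* (AALP_AA4G039900), at 22.0, 69.4 and 47.3 CPM in *pep2-1* and 81.4, 136 and 126 CPM in *pep1-1*.

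**Figure D3:**
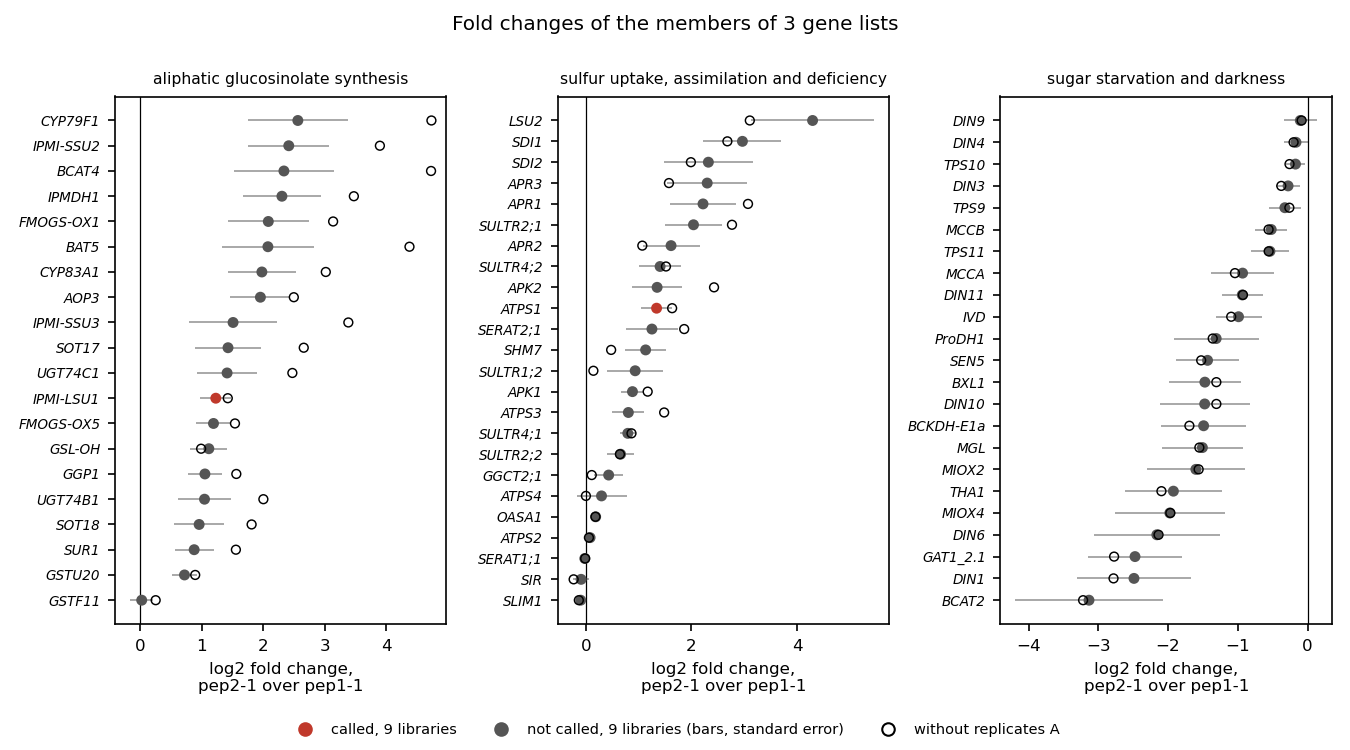
Log2 fold change of *pep2-1* over *pep1-1* (horizontal axes) for each tested gene of aliphatic glucosinolate synthesis (20), of sulfur uptake, assimilation and deficiency (24) and of sugar starvation and darkness (23), with bars of 1 standard error. Red points were called (*IPMI-LSU1* at 1.23 and *ATPS1* at 1.34), and open circles give the fold change without the libraries lettered A, which for *CYP79F1* moves to 4.74.

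Sulfur genes lay on the same side. Of 24 tested genes of sulfate uptake, assimilation and the response to sulfur shortage 21 were higher and 3 lower in *pep2-1* by the sign alone, with a median log2 fold change of 1.04. In 15, all higher, libraries did not overlap, against 12.6% of all genes on that side. The gene called was *ATPS1* (AALP_AA3G261700), ATP sulfurylase, the first enzyme of sulfate assimilation. It had 500, 398 and 404 CPM in *pep2-1* replicates A, B and C and 256, 126 and 131 CPM in *pep1-1* replicates A, B and C. The log2 fold change was 1.34 (SE 0.29, edgeR adjusted p = 0.0444), with an adjusted p of 0.0540 when only the 6 libraries were fitted. Unadjusted, 17 of the 24 were higher at p under 0.05, DESeq2 called 5 and limma-voom 8, and edgeR called 8 without *pep1-1* replicate A, 2 without wild-type replicate A and 0 without any 1 other library.

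*APR1* (AALP_AA6G052100), the adenosine phosphosulfate reductase that is a main control point of the pathway, had 207, 107 and 152 CPM in *pep2-1* and 68.8, 12.6 and 18.2 CPM in *pep1-1*. *LSU2* (AALP_AA8G424200), a marker of sulfur shortage, had 18.2, 1.00 and 4.97 CPM in *pep2-1* and 0.542, 0.361 and 0.312 CPM in *pep1-1*. Its *pep2-1* libraries were themselves far apart, and neither gene was called (adjusted p = 0.0976 for *APR1* and 0.0896 for *LSU2* from edgeR). The regulator *SLIM1* (AALP_AA2G173300) and the sulfite reductase gene *SIR* (AALP_AA8G039900) both differed by -0.09. With the libraries lettered A left out, 13 of the 24 genes were called higher.

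Methionine genes gave 2 calls among 18. *HMT3* (AALP_AA3G259900), a homocysteine methyltransferase, had 30.1, 35.8 and 24.4 CPM in *pep2-1*, against 9, 0.866 and 2.11 CPM in *pep1-1*. The change was 2.89 on the log2 scale (SE 0.60, edgeR adjusted p = 0.0398). *PMSR2* (AALP_AA8G070300), which repairs oxidised methionine in proteins, had 45.8, 39.6 and 38.7 CPM in *pep2-1* and 14.5, 3.61 and 5.62 CPM in *pep1-1*, a log2 fold change of 2.37 (SE 0.46, edgeR adjusted p = 0.0311). In contrast, the bulk methionine synthase gene *MS1* (AALP_AA8G192400) differed by 0.27 and *HMT2* (AALP_AA5G290600) by -0.21. Both calls were lost without any 1 *pep2-1* library and without *pep1-1* replicate B or C, and 1 of them without wild-type replicate B or C.

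Genes induced by sugar starvation and darkness had the opposite sign. All 23 tested members were lower in *pep2-1* by the sign of the estimate, with a median log2 fold change of -1.43, and 7 had libraries that did not overlap, against 11.5% of all genes on that side. None was called by edgeR with all 9 libraries, 15 were lower at an unadjusted p under 0.05 (8.96% of all genes were), and DESeq2 and limma-voom called 1 each, as did edgeR with only the 6 libraries fitted or without wild-type replicate A. *BCAT2* (AALP_AA1G107100), a branched-chain aminotransferase, had 1.83, 7.42 and 4.26 CPM in *pep2-1* replicates A, B and C and 7.92, 35.9 and 73.0 CPM in *pep1-1* replicates A, B and C. Its log2 fold change was -3.13 (SE 1.05, edgeR adjusted p = 0.150). *DIN6* (AALP_AA6G270400), the dark-induced asparagine synthetase, had 26.3, 185 and 94.0 CPM in *pep2-1* and 140, 374 and 851 CPM in *pep1-1*.

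For both of these genes replicate A was the lowest library of each genotype, and in *DIN6* *pep2-1* replicate B was above *pep1-1* replicate A. The summed level of the 23 genes was 815, 1925 and 1118 CPM in *pep2-1*, 1732, 3023 and 4402 CPM in *pep1-1* and 921, 2703 and 3510 CPM in the wild type. These sums overlapped between genotypes, with *pep2-1* replicate B above replicate A of *pep1-1* and of the wild type. Without the libraries lettered A edgeR called 13 of the 23 lower. The summed level of the 20 aliphatic glucosinolate genes was highest in replicate A of each genotype, at 7479, 7269 and 7077 CPM in *pep2-1*, 5113, 2303 and 2349 CPM in *pep1-1* and 5000, 3344 and 2986 CPM in the wild type. No label says what the letters share.

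**Figure D4:**
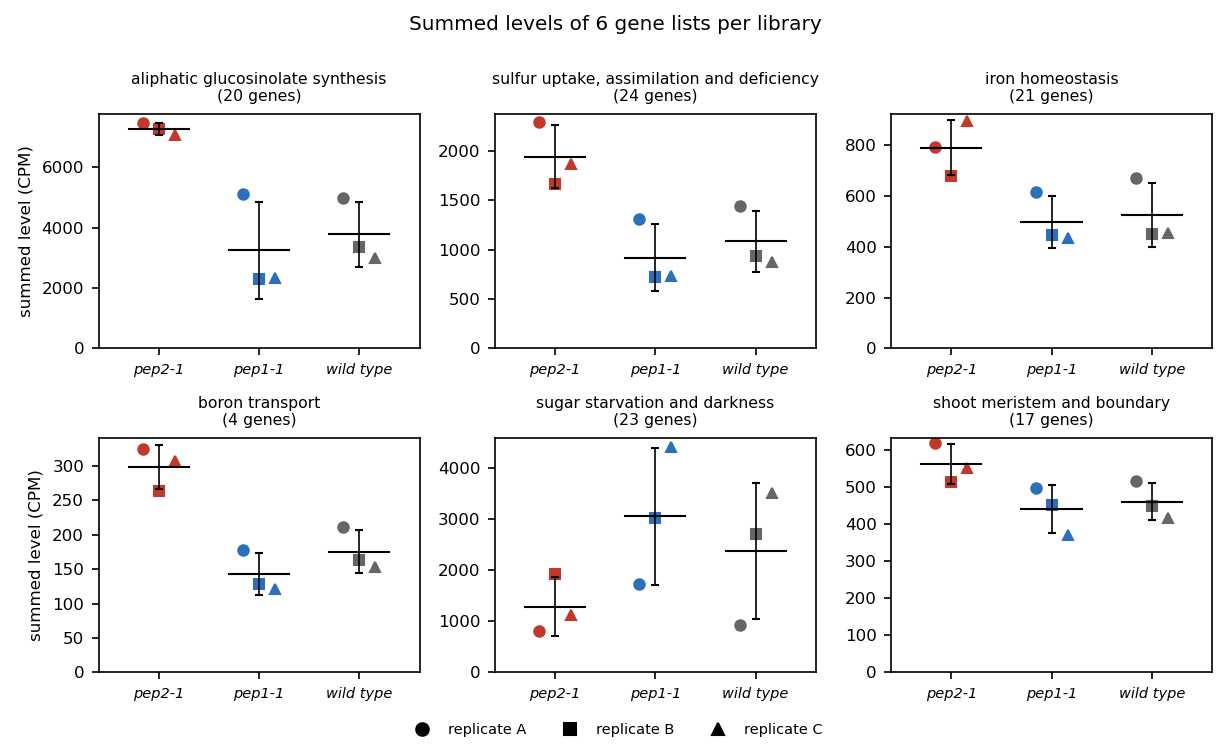
Summed level in CPM (vertical axes, from 0) of 6 gene lists in each library of *pep2-1*, *pep1-1* and the wild type, with lines at the means and bars of 1 SD (n = 3). The *pep2-1* libraries are above all others for aliphatic glucosinolate synthesis (7077 to 7479 CPM) and boron transport (263 to 325 CPM), and replicate A is the lowest library of each genotype for sugar starvation and darkness.

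Boron transport, a short list also drawn up with results of these libraries known, had the largest share of calls of any list, 3 of 4 tested genes. *NIP5;1* (AALP_AA6G185600), a boric acid channel, had 93.6, 88.6 and 101 CPM in *pep2-1* and 52.5, 41.3 and 43.4 CPM in *pep1-1* (log2 fold change 1.05, SE 0.13, edgeR adjusted p = 0.00552). *NIP6;1* (AALP_AA2G259100), the channel that directs boron to growing shoot tissues, had 53.1, 44.9 and 57.1 CPM in *pep2-1* and 29.8, 21.1 and 17.3 CPM in *pep1-1* (log2 fold change 1.18, edgeR adjusted p = 0.0135). The exporter *BOR1* (AALP_AA4G260300) had 171, 125 and 143 CPM in *pep2-1* and 92.5, 61.6 and 58.2 CPM in *pep1-1* (log2 fold change 1.05, edgeR adjusted p = 0.0280). In each of the 3 genes every *pep2-1* library was above every *pep1-1* library. The count became 0 without *pep2-1* replicate C or *pep1-1* replicate B and 2 without *pep2-1* replicates A or B or *pep1-1* replicate C.

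Iron genes were on the higher side in 20 of 21 cases, with a median log2 fold change of 0.73, and 3 were called. *FRD3* (AALP_AA3G089700, chromosome 3, 4455839 to 4459733), which exports citrate into the xylem, had 21.7, 13.8 and 16.9 CPM in *pep2-1* and 3.99, 1.73 and 1.17 CPM in *pep1-1*. The log2 fold change of 2.90 (SE 0.40, edgeR adjusted p = 0.00753) was called whichever library was left out. *VTL5* (AALP_AA3G292800), of the vacuolar iron transporter family, had 18.5, 11.8 and 14.2 CPM in *pep2-1* and 5.01, 2.74 and 1.87 CPM in *pep1-1* (log2 fold change 2.19, edgeR adjusted p = 0.0259). *IMA3* (AALP_AA6G089900), which encodes a peptide of the iron shortage response, had 5.56, 8.27 and 13.6 CPM in *pep2-1* and 2.91, 2.74 and 1.17 CPM in *pep1-1* (log2 fold change 1.98, edgeR adjusted p = 0.0390).

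The nicotianamine synthase genes *NAS1* (AALP_AA8G044000), *NAS3* (AALP_AA1G096100) and *NAS4* (AALP_AAs74350U000200) were not called at log2 fold changes of 2.54, 1.74 and 2.12, and none overlapped between the mutants. The ferritin genes *FER1* (AALP_AA8G008800) and *FER3* (AALP_AA5G201600) differed by 0.11 and 0.05. The iron count became 1 without *pep2-1* replicates B or C or *pep1-1* replicates B or C, 5 without *pep1-1* replicate A or wild-type replicate A, and 2 without *pep2-1* replicate A or wild-type replicate B. DESeq2 called 4 and limma-voom 7.

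Nitrate and phosphate genes gave no call in edgeR with all 9 libraries. Of 16 nitrate genes 7 were higher at an unadjusted p under 0.05, against 10.1% of all genes, and DESeq2 and limma-voom called 4 each. Here edgeR called 3 nitrate genes without *pep1-1* replicate A, 4 without wild-type replicate A, 5 without the libraries lettered A and 2 with only the 6 libraries fitted, and of the phosphate genes it called 1 without *pep1-1* replicate A and 2 without wild-type replicate A. Among the nitrate genes was the xylem nitrate loader *NPF7.3* (AALP_AA1G332400), at 42.9, 57.3 and 68 CPM in *pep2-1* and 27.5, 15.6 and 7.89 CPM in *pep1-1*. Of 16 phosphate starvation genes 4 were higher and 2 lower at an unadjusted p under 0.05, DESeq2 called 2 higher, limma-voom called 2 higher and 1 lower, and the median log2 fold change was 0.11. The phosphate exporter *PHO1* (AALP_AA3G269700) had 40.3, 30.1 and 34.6 CPM in *pep2-1* and 21.3, 13.0 and 8.91 CPM in *pep1-1*, which did not pass (edgeR adjusted p = 0.0524).

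Among transporter families, 4 of the 31 tested genes described as nodulin MtN21 type, a family that includes amino acid exporters, were higher in *pep2-1* and 0 lower (12.9%, against 0.686% of all genes). AALP_AA2G131700 had 108, 58.1 and 51.3 CPM in *pep2-1* and 14.5, 3.10 and 2.73 CPM in *pep1-1* (log2 fold change 3.40, edgeR adjusted p = 0.0259). AALP_AA4G090300 had 172, 94.4 and 116 CPM in *pep2-1* and 61.8, 34.3 and 31.9 CPM in *pep1-1* (log2 fold change 1.58, edgeR adjusted p = 0.0495), and AALP_AA1G001100 and AALP_AA6G204100 had log2 fold changes of 2.57 and 2.20. The family median was 0.19, and DESeq2 called 6 higher and limma-voom 8. With each library left out in turn, the calls of these genes were kept in only 2 to 4 of the 9 fits. That of AALP_AA1G001100 was also lost with only the 6 libraries fitted (edgeR adjusted p = 0.0541). An ABC transporter gene, AALP_AA5G052500, had 29.3, 24 and 24 CPM in *pep2-1* and 11.5, 11.0 and 9.30 CPM in *pep1-1* (log2 fold change 1.28, edgeR adjusted p = 0.0123). In all 5 genes the *pep2-1* libraries were above those of *pep1-1*.

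Enzymes of oxidative and specialised metabolism were found among the calls as well. Class III peroxidases, which act on cell wall phenolics, gave 3 of 24 higher and 0 lower, where 0.686% of all genes were called higher. AALP_AA8G047500 had 33.8, 38.1 and 29.2 CPM in *pep2-1* and 12.5, 2.96 and 5.62 CPM in *pep1-1*, with wild-type values of 38.7, 16.8 and 23.2 CPM (log2 fold change 2.25, edgeR adjusted p = 0.0322). AALP_AA4G162800 and AALP_AA7G199600 had log2 fold changes of 3.49 and 1.77, and the first did not pass in limma-voom (adjusted p = 0.0604). With each library left out in turn, the calls of these peroxidase genes were kept in 3 to 5 of the 9 fits. Of 37 glutathione transferase genes 2 were higher, among them AALP_AA8G016900 at 59.8, 37.0 and 51.5 CPM in *pep2-1* and 19.6, 11.0 and 12.6 CPM in *pep1-1* (log2 fold change 1.77, edgeR adjusted p = 0.0166). Its call was kept in 5 of the 9 fits with 1 library left out, and that of AALP_AA1G231400 in 1. A gene with the flavonol synthase *FLS3* as its ortholog (AALP_AA8G467300) and the lipoxygenase gene *LOX4* (AALP_AA2G158600), of jasmonate synthesis, were higher by 1.90 and 1.80 on the log2 scale (edgeR adjusted p = 0.0147 and 0.0326). Each was the 1 call of its list, of 13 flavonoid and 14 jasmonate genes. The flavonoid count became 0 without *pep2-1* replicate A or *pep1-1* replicate B. The *LOX4* call was lost with only the 6 libraries fitted (edgeR adjusted p = 0.0558) and without any 1 *pep2-1* library.

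Phosphoenolpyruvate carboxylase, which fixes bicarbonate into oxaloacetate, was represented by *PPC3* (AALP_AA3G167700), with 28.5, 18.24 and 32.5 CPM in *pep2-1* and 6.36, 1.88 and 3.59 CPM in *pep1-1*. Its log2 fold change was 2.73 (SE 0.49, edgeR adjusted p = 0.0239). The gene of phosphoenolpyruvate carboxylase kinase 1 (AALP_AA1G088400), which activates such enzymes and was chosen after its values were seen, had 11.6, 10.1 and 14.4 CPM in *pep2-1* and 5.08, 3.10 and 3.20 CPM in *pep1-1* (log2 fold change 1.65, edgeR adjusted p = 0.00722). The groups did not overlap for either gene.

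Cytokinin response genes were higher by sign in 11 of 12 cases, with a median log2 fold change of 0.54. Libraries did not overlap in 8 of them, against 12.6% of all genes on that side. The LOB domain gene *ASL9* (AALP_AA1G184000), which responds to cytokinin, had 12.8, 13.5 and 13.9 CPM in *pep2-1*, 7.51, 6.57 and 4.61 CPM in *pep1-1* and 11.8 to 14.4 CPM in the wild type. It was thus at the wild-type level in *pep2-1*, and its log2 fold change between the mutants was 1.1 (SE 0.16, edgeR adjusted p = 0.0118). *ARR8* (AALP_AA4G197100), a type-A response regulator, had 3.16, 2.55 and 3.39 CPM in *pep2-1* and 1.35, 1.73 and 1.17 CPM in *pep1-1* (log2 fold change 1.09, edgeR adjusted p = 0.0478). The other 9 genes of the list on that side, *ARR5*, *ARR6* and *ARR7* among them at 0.42, 0.88 and 0.58, were not called by edgeR, while DESeq2 called 3 genes of the list and limma-voom 2. The count of 2 became 1 without any 1 library of either mutant other than *pep1-1* replicate C, without which it was 0, and 1 without wild-type replicates B or C.

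Of the auxin-responsive SAUR family, 3 of 40 were higher. AALP_AA6G012500 had 12.9, 12.9 and 13.1 CPM in *pep2-1* and 7.38, 5.27 and 5.08 CPM in *pep1-1*. Its replicates in *pep2-1* were nearly identical, and its log2 fold change of 1.13 (SE 0.15, edgeR adjusted p = 0.00611) was kept with each library left out. AALP_AA5G054100, a gene of the 60S acidic ribosomal proteins, had 282, 295 and 295 CPM in *pep2-1*, 148, 137 and 144 CPM in *pep1-1* and 94.1 to 100 CPM in the wild type. It was the case of 3 ordered, tight levels, at a log2 fold change of 1.02 between the mutants (SE 0.07, edgeR adjusted p = 0.000123). The 251 ribosomal protein genes as a whole had a median of -0.06 and 2 calls, each on the higher side. By sign 192 of them were lower. At an unadjusted p under 0.05, 37 were lower and 4 higher, where 8.96% and 10.1% of all genes were.

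Genes lower in *pep2-1* were of other kinds. F-box proteins, the substrate receptors of ubiquitin ligases, gave 6 of 126 lower and 0 higher in edgeR (4.76%, against 0.649% of all genes). At an unadjusted p under 0.05, 13 of the 126 were lower and 10 higher, where 8.96% and 10.1% of all genes were. The family median was -0.06. DESeq2 called 7 lower and 0 higher, and limma-voom 8 lower and 2 higher. AALP_AA1G152600 had 0.316, 0.386 and 0.473 CPM in *pep2-1* and 3.93, 2.81 and 3.28 CPM in *pep1-1*, with 3.02 to 3.86 CPM in the wild type (log2 fold change -3.08, edgeR adjusted p = 0.000645). AALP_AA8G456000 had 1.45, 1.16 and 1.81 CPM in *pep2-1* and 4.06, 5.20 and 4.22 CPM in *pep1-1* (log2 fold change -1.60, edgeR adjusted p = 0.00709). AALP_AA1G107800 and AALP_AA8G448900 fell by 2.31 and 1.31 on the log2 scale. All are low in reads, so that their values rest on small counts.

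Resistance-type genes fell in part. Of 52 tested TIR-NBS-LRR and NB-ARC genes, which encode intracellular immune receptors, 2 were lower and 0 higher in edgeR, with a median of 0.02. At an unadjusted p under 0.05, 8 were lower and 4 higher. DESeq2 called 2 lower and limma-voom 3, and each called 0 higher. AALP_AA2G163800 (chromosome 2, 22282956 to 22286300) had 4.61, 4.71 and 4.73 CPM in *pep2-1* and 15.7, 14.0 and 12.9 CPM in *pep1-1* (log2 fold change -1.60, SE 0.14, edgeR adjusted p = 0.000694). AALP_AA1G194300 had 0.0632, 0.309 and 0.236 CPM in *pep2-1* and 1.29, 2.09 and 1.41 CPM in *pep1-1* (log2 fold change -2.98, edgeR adjusted p = 0.0150). Of 11 cysteine-rich receptor-like kinase genes 2 were lower, *CRK29* (AALP_AA7G038100) at 5.24, 5.95 and 6.31 CPM in *pep2-1* and 15.4, 18.8 and 19.1 CPM in *pep1-1* (log2 fold change -1.61, edgeR adjusted p = 0.000375) and *CRK5* (AALP_AA6G028000) at a log2 fold change of -2.6.

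SUMO proteases, which remove the small modifier SUMO from proteins, gave 2 of 8 lower. *ULP1c* (AALP_AA1G114100) had 3.92, 3.63 and 3.70 CPM in *pep2-1* and 7.78, 7.5 and 7.5 CPM in *pep1-1*. Its replicates were close in both mutants, and its log2 fold change was -1.01 (SE 0.15, edgeR adjusted p = 0.0103), just past the fold threshold. *ULP1a* (AALP_AA3G067700) had 5.05, 5.33 and 4.81 CPM in *pep2-1* and 8.12, 11.3 and 11.6 CPM in *pep1-1* (log2 fold change -1.03, edgeR adjusted p = 0.0253). The study also drew a desumoylation theme from these libraries, so the list is not independent evidence of its direction. The count was 1 without *pep2-1* replicates A or C or any 1 *pep1-1* library and 0 without *pep2-1* replicate B.

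Some other genes that fell in *pep2-1* and stayed called whichever library was left out had levels in *pep1-1* close to the wild type, of which 3 are given here. AALP_AA3G230200, a chromatin remodelling gene of the SNF2 type, had 17.2, 15.7 and 16.9 CPM in *pep2-1*, against 40.5, 45.9 and 43.0 CPM in *pep1-1* and 42.6, 50.5 and 46.1 CPM in the wild type (log2 fold change -1.37, SE 0.09, edgeR adjusted p = 0.000123). It was the 1 call among 10 genes of its kind, whose median was 0.02. AALP_AA8G311800, the ortholog of the co-chaperone gene *HOP3*, had 11.3, 9.04 and 10.6 CPM in *pep2-1* and 36.8, 30.7 and 30.3 CPM in *pep1-1* (log2 fold change -1.66, edgeR adjusted p = 0.000199). AALP_AA1G287500, a WD40 repeat gene, had 7.14, 8.19 and 9.38 CPM in *pep2-1* and 18.5, 20.6 and 24.8 CPM in *pep1-1* (log2 fold change -1.37, edgeR adjusted p = 0.00185). For these genes *pep2-1* stood apart from both other genotypes.

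Larger falls of this kind, with *pep2-1* far below both other genotypes, were seen in genes of lower level. AALP_AA2G067900, the ortholog of *GTG1* (chromosome 2, 9500981 to 9511164), had 0.253, 0.0773 and 0.158 CPM in *pep2-1*, against 3.11, 3.75 and 3.20 CPM in *pep1-1* and 2.6 to 3.57 CPM in the wild type (log2 fold change -4.25, SE 0.34, edgeR adjusted p = 0.000315). The SKU5-like gene AALP_AA8G288500 had 1.90, 1.24 and 2.05 CPM in *pep2-1* and 13.0, 11.0 and 11.2 CPM in *pep1-1* (log2 fold change -2.75, edgeR adjusted p = 0.000199). AALP_AA3G154300, which has no ortholog listed, had 2.46, 1.47 and 2.05 CPM in *pep2-1* and 11.0, 10.2 and 9.53 CPM in *pep1-1* (log2 fold change -2.34, edgeR adjusted p = 0.000199).

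In other genes the mutant farther from the wild type was *pep1-1*. AALP_AA6G067000 (chromosome 6, 4451778 to 4453731), with no ortholog, had 1.07, 1.31 and 1.18 CPM in *pep2-1*, 71.3, 100 and 103 CPM in *pep1-1* and 2.25 to 4.23 CPM in the wild type. It had the smallest adjusted p of the comparison (6.14e-06 from edgeR), at a log2 fold change of -6.26. Over the wild type its log2 fold change was 4.70 in *pep1-1* (edgeR adjusted p = 2.13e-05) and -1.56 in *pep2-1* (adjusted p = 0.0334). AALP_AAs47458U000100 had 0.253, 0.309 and 0.867 CPM in *pep2-1*, 16.6, 26.3 and 25.5 CPM in *pep1-1* and 0.562 to 0.655 CPM in the wild type (log2 fold change -5.60, edgeR adjusted p = 9.12e-05). AALP_AA2G088600 had 0 reads in every *pep2-1* library, 13.6, 10.3 and 7.89 CPM in *pep1-1* and 0.211 to 0.246 CPM in the wild type. It was thus at least 147-fold lower in *pep2-1* than in *pep1-1*, with 3 reads over the 3 *pep2-1* libraries taken as the floor.

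The reverse was also seen. AALP_AA6G069600 (chromosome 6, 4663823 to 4665349), of unknown function, had 35.4, 8.58 and 77.2 CPM in *pep2-1*, 0.135, 0.144 and 0.234 CPM in *pep1-1* and 89.1, 89.2 and 98.3 CPM in the wild type. It was almost silent in *pep1-1*, and the *pep2-1* libraries were far apart among themselves (log2 fold change 7.83, SE 1.02, edgeR adjusted p = 0.00558, and 0.262 from limma-voom). AALP_AA2G207400, which encodes an ARID domain protein, had 19.6, 17.7 and 16.8 CPM in *pep2-1*, 3.59, 4.4 and 3.75 CPM in *pep1-1* and 18.5 to 21.5 CPM in the wild type (log2 fold change 2.20, SE 0.12, edgeR adjusted p = 7.06e-05). AALP_AA1G152400, without an ortholog, had 8.97, 11.5 and 6.78 CPM in *pep2-1*, 1.56, 1.73 and 1.80 CPM in *pep1-1* and 12 to 21.6 CPM in the wild type (log2 fold change 2.42, edgeR adjusted p = 0.00359).

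**Figure D5:**
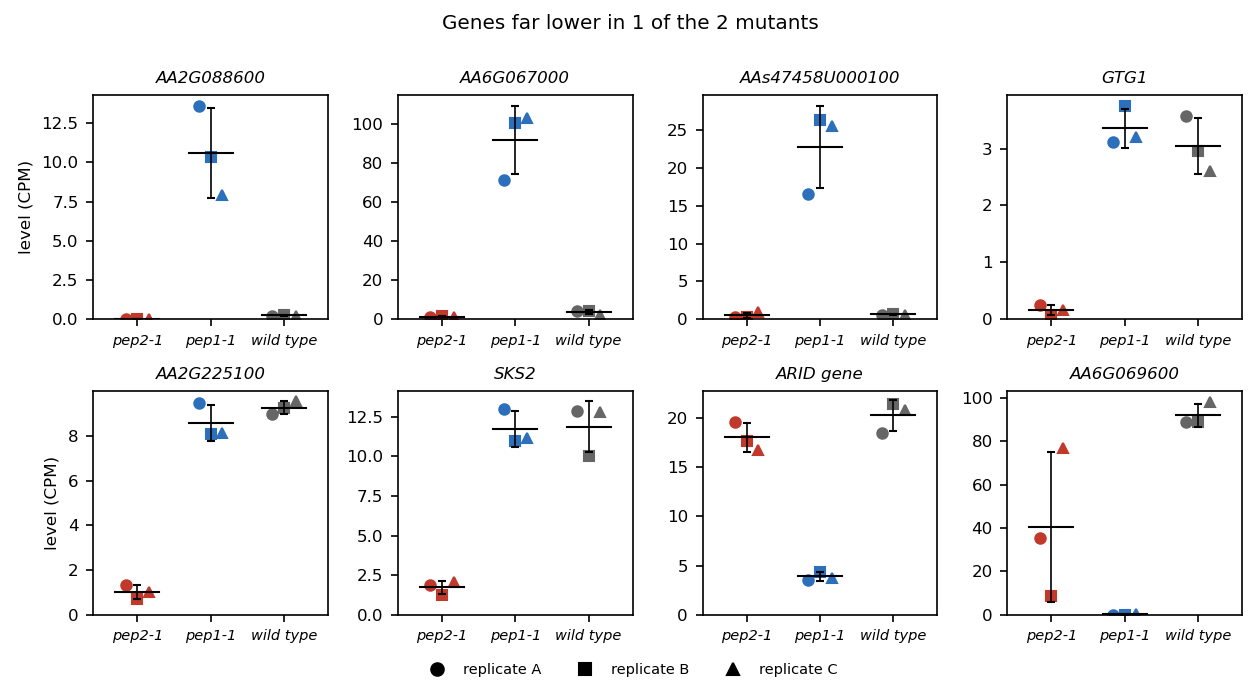
Levels in CPM (vertical axes, from 0) of 8 genes with a far lower level in 1 mutant than in the other, by library, with lines at the means and bars of 1 SD (n = 3). AALP_AA2G088600 and AALP_AA6G067000 are high in *pep1-1* alone, *GTG1*, AALP_AA2G225100 and the SKU5-like gene (*SKS2*) are low in *pep2-1* alone, and the ARID gene and AALP_AA6G069600 are low in *pep1-1* alone, with 8.58 to 77.2 CPM of the last in *pep2-1*.

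Delta tonoplast intrinsic protein (AALP_AA3G184100) and *PAB7* (AALP_AA4G137400, a poly(A) binding protein) were further genes with *pep2-1* near the wild type and *pep1-1* above it in every library. The water channel gene had 24.1, 32.8 and 38.4 CPM in *pep2-1*, 49.2, 83.2 and 90.7 CPM in *pep1-1* and 28.9 to 45.1 CPM in the wild type (log2 fold change -1.23, edgeR adjusted p = 0.0382). *PAB7* had 4.74, 3.32 and 2.76 CPM in *pep2-1* and 11.5, 9.45 and 8.98 CPM in *pep1-1* (log2 fold change -1.45, edgeR adjusted p = 0.0226). Over the wild type, the adjusted p of *pep1-1* from edgeR was 0.353 for the water channel gene and 0.168 for *PAB7*.

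Called genes were spread over the genome. By chromosome, 0.546% to 0.879% of the tested genes were higher and 0.488% to 0.910% lower, and on unplaced scaffolds 0.544% and 0.967%. The *pep2-1* plants were chosen by a marker at *PEP2*, so its neighbourhood was counted separately. Within 5 Mb on each side of it 5 of 757 tested genes were higher and 4 lower, which is 1.19% called, against 1.34% of all tested genes. Within 1 Mb 1 of 195 was higher and 1 lower, and no 3 genes called in the same direction lay within 3 tested genes of each other anywhere on the chromosomes.

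Lists of other tissues and processes gave no call in edgeR with all 9 libraries for cell division (22 genes tested), photosynthesis (24), the trichome and stomatal lineage (16), vascular tissue (16), root tissue (7), shoot meristem and boundary (17), gibberellin (16), the morning clock (9) or the evening clock (12). At an unadjusted p under 0.05 these lists had 4, 2, 3, 10, 4, 6, 7, 0 and 0 genes in the same order. In either direction 19.1% of all genes reached this p. Cell division, photosynthesis, the trichome and stomatal lineage and both clock lists were under that share. The 4 cell division genes and the 3 of the trichome and stomatal lineage were all lower in *pep2-1*, where 8.96% of all genes were. Both lists were thus above the share for that side alone, though under the share for either direction. By sign 19 of 22 cell division genes and 14 of 16 of the trichome and stomatal lineage were lower. Libraries did not overlap in 7 cell division genes, all lower, against 11.5% of all genes on that side. DESeq2 called 1 root gene and limma-voom 1 vascular gene, and neither called any other. With single libraries left out edgeR called 3 vascular genes without *pep1-1* replicate A and 1 root gene without wild-type replicate B. Cell division genes, a measure of proliferating cells, had a median log2 fold change of -0.14 and summed to 1543 to 1617 CPM in *pep2-1* and 1537 to 1839 CPM in *pep1-1*. Vascular genes were higher by sign in 15 of 16 cases (median 0.54) and summed to 654 to 664 CPM in *pep2-1*, against 389 to 598 CPM in *pep1-1*. Of the root list, the endodermal marker *CASP1* (AALP_AA4G132200) had at most 0.948 CPM in *pep2-1* and at most 0.271 CPM in *pep1-1*. In bulk apices, fewer cells of a type and less RNA per cell cannot be told apart, and the part of tissue make-up in the differences above was not tested.

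Shoot meristem genes had 5 of 17 members higher and 1 lower at an unadjusted p under 0.05 (10.1% and 8.96% of all genes). *LSH3* (AALP_AA6G084400), a gene of organ boundaries, had 69.0, 56.5 and 62.7 CPM in *pep2-1* and 41.8, 38.7 and 27.4 CPM in *pep1-1* and passed on adjusted p but not on fold (log2 fold change 0.80, edgeR adjusted p = 0.0295). The branching repressor *BRC1* (AALP_AA3G213200) had 0.442, 1.55 and 1.1 CPM in *pep2-1* and 2.44, 2.38 and 2.66 CPM in *pep1-1*. Its libraries did not overlap, and its log2 fold change of -1.30 was not called (edgeR adjusted p = 0.106).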

How the data were processed

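Poly(A) RNA of dissected apices from 3 *pep2-1*, 3 *pep1-1* and 3 wild-type samples was sequenced as single-end reads. The authors mapped them with TopHat to the *A. alpina* genome and deposited estimated counts from CuffDiff as raw reads per gene and library, of which 64 genes hold fractional values. For the versions, annotation release and strand setting, nothing is given in the sources used here. Overlapping, antisense or near-identical genes may therefore share reads. The table letters replicates and the labels number them. Its 18 other per-sample columns, and the authors' fold changes, p-values and q-values, were not used.

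After rounding of the estimated counts, filterByExpr (minimum count 10, minimum total 15) chose the genes to test, libraries were scaled by TMM, and all 9 libraries were fitted with the quasi-likelihood test of edgeR 4.0.16 (R 4.3.3), taking *pep2-1* minus *pep1-1* with Benjamini-Hochberg adjustment over 21713 genes. Principal components and correlations of libraries use log2 CPM with a pseudocount of 2. The thresholds for a call were 0.05 on the adjusted p and 1 on the log2 fold change in either direction. CPM use the TMM scaling, and values are compared between libraries of a gene, not between genes. P-values set the difference between the mutants against the spread between libraries of a genotype, which was estimated with the wild type included unless stated.

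Named genes are *PEP2* and flowering genes of the study, up to 12 called genes in each direction by fold (mean of at least 5 CPM, groups that do not overlap) or by stability, up to 4 called members of each of 30 gene lists and 20 description families, and up to 5 without an ortholog. Other list members are named to show how a list stands. Members and lists were chosen with earlier results of these data known. DESeq2 1.42.0, limma-voom with sample quality weights (limma 3.58.1), other scalings, no filter, the 6 libraries alone, a replicate block and leaving out libraries were the alternatives. No sequences or genome were used here.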

Additional observations from a re-analysis of the deposited data

How the results depend on the processing

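The counts of genes called higher and lower in *pep2-1* (149 and 141) depended on the fit. Higher genes numbered 304 in DESeq2 and 367 in limma-voom, against 178 and 201 lower. Scaling by DESeq2 size factors gave 151 and 142, library size alone 156 and 146, no filter on low counts 169 and 145, and the 6 libraries alone 114 and 103. A replicate block by letter gave 427 and 236 (and 16 of 20 aliphatic glucosinolate genes and 11 of 24 sulfur genes higher, 12 of 23 sugar starvation genes lower), and without the libraries lettered A they were 489 and 234. Same-letter libraries of *pep2-1* and *pep1-1* correlated at 0.312, 0.0769 and -0.0273 for A, B and C in their deviations from the genotype means, and *pep1-1* replicate C correlated best with *pep2-1* replicate B (0.387). With the wild type, the same-letter values were 0.626, 0.385 and 0.319 for *pep1-1* and 0.472, 0.388 and 0.0138 for *pep2-1*. Since not every pair exceeded 0.1 and no label links the letters, the libraries were not treated as paired, although replicates A resembled each other across genotypes. With 1 library left out the counts ran from 21 to 379 for higher and from 70 to 175 for lower. Of 86 named genes none changed direction under any alternative. Of the 81 named genes that were called, 81 kept the call in DESeq2, 78 in limma-voom, 68 with the 6 libraries alone and 36 with each library left out in turn. *TFL1* was called in DESeq2, in limma-voom and without some of the libraries lettered A. Depth limits genes of few reads such as *FUL* and *FT*, which were not tested. The cause of these differences was not tested.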
